A study of Homo sapiens with 6 samples.

Results

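Integrins are the cell surface receptors that hold epithelial cells to the extracellular matrix, each made of 1 alpha and 1 beta subunit. The transcripts of 10 integrin subunit genes of epithelial cells were followed here: the alpha subunit genes ITGA2, ITGA3, ITGA5, ITGA6 and ITGAV and the beta subunit genes ITGB1, ITGB4, ITGB5, ITGB6 and ITGB8. Every probe annotated to these genes was taken, 22 of 27988 named probes. Of these, 16 probes in 9 of the 10 genes were detected on at least 3 arrays, and these 9 genes were among the 11586 genes tested. RNA came from HuCCT1, a long-established human line of bile duct cancer (cholangiocarcinoma), in a mock derivative that overexpressed an empty vector and a derivative labelled as stably overexpressing WTAP, a regulatory part of the m6A writer complex, which places methyl groups on adenosines of mRNA. Each group had 3 Illumina bead arrays, whose titles end in p4, p5 and p6 and which are called arrays 4, 5 and 6 here. What the p stands for was not stated. The labels do not say whether a derivative was 1 clone, which promoter drove WTAP, or whether arrays came from separate cultures, so the p-values cover no more than the scatter among these 6 samples, and that scatter may be technical. All RNA was bulk RNA, in which fewer cells of a type and less RNA per cell cannot be told apart.

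The alpha subunit largely sets which matrix protein an integrin binds, and the beta subunit carries most of the link to the actin or keratin cytoskeleton. ITGB1 is the common partner of many alpha subunits, among them the collagen receptor subunit ITGA2, the laminin receptor subunits ITGA3 and ITGA6 and the fibronectin receptor subunit ITGA5. ITGA6 also pairs with ITGB4, whose long tail anchors hemidesmosomes, the junctions of epithelium to basement membrane. ITGAV pairs with ITGB1, ITGB5, ITGB6 or ITGB8 and binds ligands with the RGD motif, such as vitronectin, and with ITGB6 or ITGB8 it activates latent TGF-beta. A subunit reaches the cell surface only with a partner, and transcript levels do not show how much receptor is there.

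The 6 arrays were alike in depth, with median bead signals of 192 to 203 and 15071 to 16307 detected probes (detection p under 0.05, which sets a probe against the negative controls of its array). The cells matched their epithelial label: 7 of 7 measured genes of glandular and biliary epithelium (KRT7, KRT19, KRT8, KRT18, EPCAM, CDH1 and SOX9) were detected on all 6 arrays and 0 of them passed in limma (0 also at an unadjusted p under 0.05). Of 6 measured leukocyte genes the defining PTPRC and CD3E were detected on no array, while CD14, LCP1, ITGB2 and HLA-DRA were detected on all 6. The summed signal of the list was 4095 to 5397 on mock arrays and 5504 to 6605 on WTAP arrays. ITGB2 gave most of that sum, with a mean signal of 3265 on mock arrays and 4466 on WTAP arrays. The log2 fold changes of ITGB2, LCP1, HLA-DRA and CD14 were 0.58, 0.17, 0.07 and -0.22, and none of them passed in limma. Of 7 stromal genes COL3A1, PDGFRB and DCN were detected on no array, FAP on 1, COL1A2 on 4 and COL1A1 and LUM on all 6. Their summed signal was 1207 to 1354 on mock arrays and 1260 to 1605 on WTAP arrays. Of 4 measured hepatocyte genes only ALB was detected on all 6 arrays. The sum of these 4 was 903 to 1017 on mock arrays and 783 to 859 on WTAP arrays. Of 5 endothelial genes 0 were detected on all arrays. The part of such genes in the results below was not tested. The WTAP transcript itself did not check the label: its brightest probe had a mean signal of 1067 on mock arrays and 1064 on arrays labelled WTAP, so every direction given below depends on the labels.

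Of the 9 tested integrin genes, ITGA2, ITGA6 and ITGB1 fell and ITGAV and ITGB4 rose in WTAP-labelled cells (limma, Benjamini-Hochberg adjusted p under 0.05 over all tested genes). ITGA2 changed most, to 2.58-fold lower, and was the only tested member with a called change of at least 2-fold (4.03% of all tested genes had one). The 5 called genes compare with 20.4% of all tested genes called in either direction, 10.5% higher and 9.91% lower. The median log2 fold change of the 9 genes was -0.40, against 0.00294 over all tested genes. In 8 of the 9 genes the 3 values of one group lay wholly beyond those of the other (3 higher and 5 lower in WTAP-labelled cells, with ITGA5 parted by less than the digits given below), which was also so for 39.7% of all tested genes. ITGA3, ITGA5, ITGB5 and ITGB8 did not pass, and ITGB6 was not tested. The count of higher genes was 1 without WTAP array 4 and 3 without WTAP array 5.

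**Figure D1:**
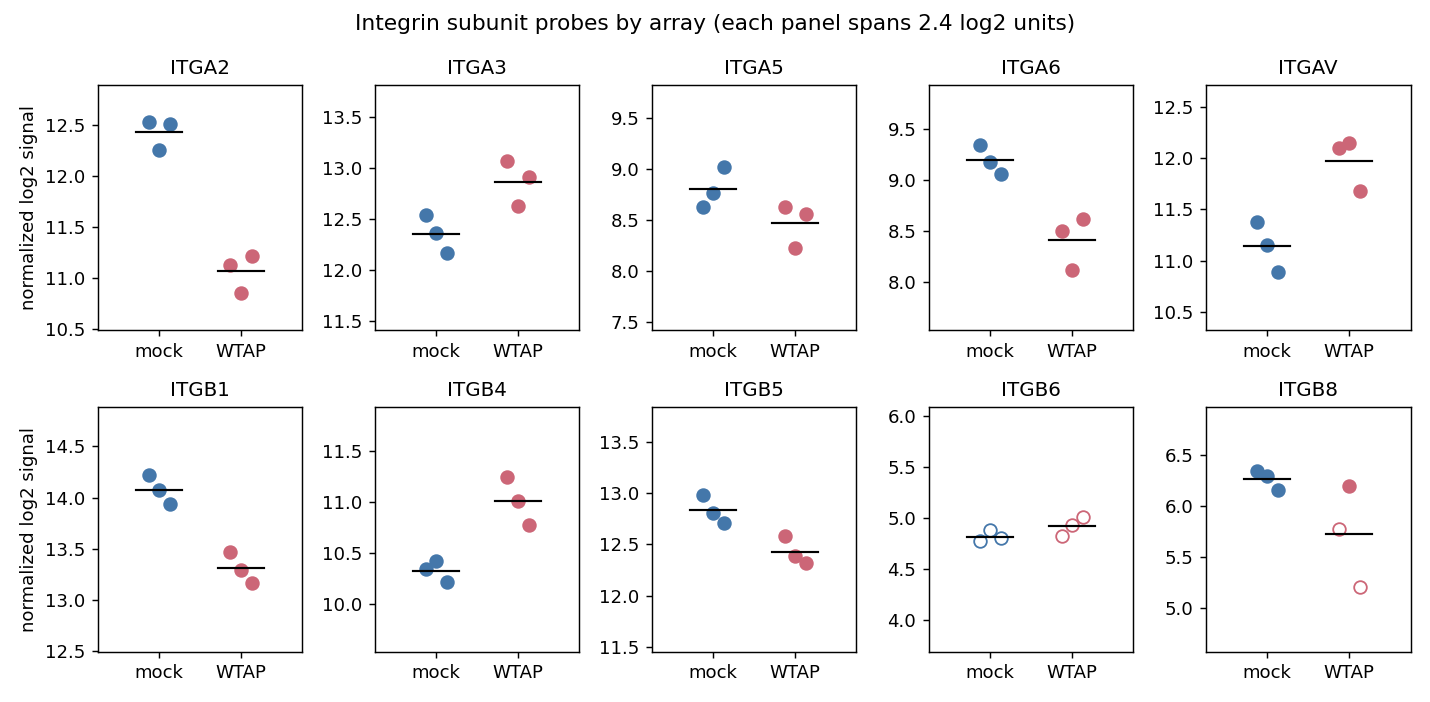
Normalized log2 signal of 1 probe of each of the 10 integrin genes (y axis) on the 3 mock and the 3 WTAP arrays (x axis, arrays 4, 5 and 6 from left to right within a group); filled points were detected at p under 0.05, open points were not, and the black line is the group mean. ITGA2, ITGA6 and ITGB1 sit lower and ITGAV and ITGB4 higher on the WTAP arrays, ITGB8 overlaps between groups, and ITGB6 is open on all 6 arrays.

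The sequence upstream of 4 of the called genes is shown because these genes moved in opposite directions. Each run holds the 250 bases before the outermost annotated start of the gene, from RefSeq promoters of build GRCh38.p14, and capitals mark matches to a GC box (GGGCGG) or a TATA box (TATAAA) on either strand; the AP-1 letters TGANTCA were searched as well. The windows lie at chr5:52989102-52989351, plus strand (ITGA2), chr2:172427086-172427335, plus strand (ITGA6), chr10:32958231-32958480, minus strand (ITGB1) and chr2:186589806-186590055, plus strand (ITGAV).
ITGA2: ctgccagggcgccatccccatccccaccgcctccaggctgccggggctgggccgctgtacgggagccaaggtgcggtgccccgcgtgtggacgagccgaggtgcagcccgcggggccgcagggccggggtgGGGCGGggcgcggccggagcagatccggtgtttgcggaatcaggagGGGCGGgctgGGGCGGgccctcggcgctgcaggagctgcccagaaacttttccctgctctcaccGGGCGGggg
ITGA6: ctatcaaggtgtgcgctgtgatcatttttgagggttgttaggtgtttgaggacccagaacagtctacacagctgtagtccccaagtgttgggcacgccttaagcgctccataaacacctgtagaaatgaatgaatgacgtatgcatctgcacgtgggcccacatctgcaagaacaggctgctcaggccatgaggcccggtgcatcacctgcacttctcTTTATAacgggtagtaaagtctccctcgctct
ITGB1: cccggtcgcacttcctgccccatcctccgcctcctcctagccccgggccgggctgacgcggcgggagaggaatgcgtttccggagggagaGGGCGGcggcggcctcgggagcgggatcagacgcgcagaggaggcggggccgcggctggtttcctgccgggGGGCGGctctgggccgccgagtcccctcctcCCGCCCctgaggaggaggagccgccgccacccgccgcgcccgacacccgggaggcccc
ITGAV: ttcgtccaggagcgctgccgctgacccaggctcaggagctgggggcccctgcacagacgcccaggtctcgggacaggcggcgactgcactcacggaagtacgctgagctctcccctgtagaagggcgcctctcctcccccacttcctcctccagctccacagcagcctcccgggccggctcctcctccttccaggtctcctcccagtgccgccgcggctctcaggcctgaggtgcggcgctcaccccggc
The ITGA2 window held 4 GC boxes, the ITGB1 window 3, and the ITGAV window 0. The ITGA6 window held 0 GC boxes and 1 TATA box, while a further annotated ITGA6 start 250 bases downstream had 3 GC boxes. A further ITGB1 start had 0 GC boxes and 3 TATA box matches, and a further ITGAV start had 0 of either. ITGB4, the other called gene, had no entry. Of 13 annotated starts of 8 integrin genes with an entry, 7 had a GC box, 2 a TATA box and 0 the AP-1 letters. Among 35116 starts of all genes, 42.6% had a GC box, 10.7% a TATA box and 6.6% the AP-1 letters in windows of this length. These matches describe letters only.

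ITGA2, the alpha subunit of the main epithelial collagen receptor, had normalized log2 signals of 12.53, 12.25 and 12.51 on mock arrays 4, 5 and 6 and of 11.13, 10.85 and 11.21 on WTAP arrays 4, 5 and 6. All 3 WTAP arrays lay more than 1 log2 unit below the lowest mock array. Before normalization its bead signal was 6182, 5249 and 6097 on the mock arrays and 2363, 1878 and 2414 on the WTAP arrays. The group means were 12.43 ± 0.16 and 11.06 ± 0.19 (SD, n = 3 each). Their log2 fold change was -1.37 ± 0.14 (SE; adjusted p = 0.000791, limma), and the 95% interval of the fall was 2.07-fold to 3.22-fold. ITGA2 had 1 probe on the arrays, so no other probe of the gene checks this value. Its 50 nearest tested genes on chromosome 5 had a median log2 fold change of 0.03.

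ITGA6, the alpha subunit of laminin receptors and of the hemidesmosome, read 9.35, 9.18 and 9.06 on the log2 scale on mock arrays 4, 5 and 6. It read 8.50, 8.12 and 8.62 on the WTAP arrays, all below the lowest mock array. The log2 fold change was -0.78 ± 0.15 (SE), a 1.72-fold fall (limma adjusted p = 0.0108). A second, dimmer ITGA6 probe overlapped between the groups, with 7.34, 6.53 and 6.82 on the mock arrays and 6.70, 5.76 and 6.56 on the WTAP arrays. Its log2 fold change of -0.56 (SE 0.28) did not pass in the fit over all detected probes (limma adjusted p = 0.209), and it was not detected on WTAP array 5. With the mean of both probes in place of the brighter one, the ITGA6 call was lost (limma adjusted p = 0.0560, over 16 alternatives 0.00141 to 0.0560).

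ITGAV, the alpha subunit of the RGD-binding receptors, was the only alpha subunit gene called higher in the fit of 1 probe per gene. Its 1 probe read 11.38, 11.15 and 10.89 on mock arrays 4, 5 and 6 and 12.10, 12.15 and 11.68 on the WTAP arrays. The groups did not overlap, with WTAP array 6 nearest to the mock arrays. The log2 fold change was 0.83 ± 0.17 (SE), a 1.78-fold rise with a 95% interval of 1.35-fold to 2.35-fold (limma adjusted p = 0.0130). Without WTAP array 4 the value was 0.77 and the call was lost (limma adjusted p = 0.0525, over 16 alternatives 0.00100 to 0.0525). ITGAV and ITGA6 both lie on chromosome 2, whose 750 tested genes had a median log2 fold change of -0.01.

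ITGA3, a laminin receptor subunit that pairs with ITGB1, just missed the threshold. Its brighter probe read 12.54, 12.36 and 12.16 on mock arrays 4, 5 and 6 and 13.06, 12.62 and 12.91 on the WTAP arrays, so that every WTAP array was above every mock array. The log2 fold change was 0.51 ± 0.15 (SE) (limma adjusted p = 0.0506). A dimmer ITGA3 probe, with log2 means of 6.42 ± 0.26 and 7.17 ± 0.22 (SD, n = 3 each), rose by 0.75 and passed in the fit over all detected probes (limma adjusted p = 0.0185), in which 19.1% of probes passed. With the array numbers as pairs (a replicate block) the brighter ITGA3 probe passed as well (limma adjusted p = 0.0399), as it did without WTAP array 5 (0.0363, over 16 alternatives 0.00752 to 0.154).

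ITGA5, the fibronectin receptor subunit, gave no call. Its log2 signals were 8.62, 8.76 and 9.02 on mock arrays 4, 5 and 6 and 8.62, 8.22 and 8.56 on the WTAP arrays. The lowest mock array and the highest WTAP array were equal to the digits given. The log2 fold change was -0.33 with a 95% interval of -0.69 to 0.02 (limma adjusted p = 0.166).

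ITGB1, the beta subunit that many alpha subunits share, fell on all 3 of its detected probes. On mock arrays 4, 5 and 6 the brightest of them read 14.22, 14.07 and 13.94 on the log2 scale, and on the WTAP arrays 13.47, 13.29 and 13.16. The groups lay well apart, and the log2 fold change was -0.77 ± 0.13 (SE), a 1.70-fold fall (limma adjusted p = 0.00558). The 2 other detected ITGB1 probes, annotated to different RefSeq transcripts of the gene, fell by 0.84 and by 0.59 (limma adjusted p = 0.00229 and 0.0299 over all detected probes). Of 3 further ITGB1 probes, 1 was detected on 1 mock array and 2 on no array.

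The fall of ITGB1 was close to that of the genes around it. ITGB1 lies on chromosome 10, whose 419 tested genes held 195 lower and 12 higher ones and had a median log2 fold change of -0.45. Of its 50 nearest tested genes, 29 were lower and 1 higher, and their median was -0.63. Subtracting the neighbours' median in each array left ITGB1 at a log2 fold change of -0.16 ± 0.13 (SE), which no longer passed (limma adjusted p = 0.457, over 16 alternatives 5.02e-05 to 0.457). The part of the chromosome in the ITGB1 value was not tested beyond this.

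ITGB4, the hemidesmosome beta subunit, rose on both of its detected probes. The brighter probe read 10.34, 10.42 and 10.22 on mock arrays 4, 5 and 6 and 11.25, 11.01 and 10.78 on the WTAP arrays, with no overlap. Its log2 fold change was 0.68 ± 0.14 (SE), a 1.60-fold rise (limma adjusted p = 0.0129). The other detected ITGB4 probe rose by 0.85 (limma adjusted p = 0.00600 over all detected probes), and 2 further probes were detected on no array. ITGB4 lies on chromosome 17, where 130 of 718 tested genes were higher and 23 lower, and its 50 nearest tested genes had a median of 0.25, with 13 higher and 1 lower. After subtraction of these neighbours the ITGB4 value was 0.41 and the call was lost (limma adjusted p = 0.0824, over 16 alternatives 0.000909 to 0.0824). ITGA3 lies on the same chromosome, with a neighbours' median of 0.17 and a value of 0.39 after subtraction.

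ITGB5, a partner of ITGAV in the vitronectin receptor, had 3 detected probes, and on each of them all WTAP arrays lay below all mock arrays. The brightest read 12.98, 12.81 and 12.71 on mock arrays 4, 5 and 6 and 12.58, 12.39 and 12.32 on the WTAP arrays. This probe, which stood for the gene, had a log2 fold change of -0.40 ± 0.12 (SE) and did not pass (limma adjusted p = 0.0535). The other 2 ITGB5 probes fell by 0.51 and by 0.60 in the fit over all detected probes (limma adjusted p = 0.0431 and 0.0124). With the array numbers as a replicate block the brightest probe passed too (limma adjusted p = 0.0348, over 16 alternatives 0.00891 to 0.144).

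ITGB8 and ITGB6, the beta subunits that join ITGAV in the activation of latent TGF-beta, were at or near background. The ITGB8 probe was detected on all 3 mock arrays but on WTAP array 5 alone among the WTAP arrays. It read 6.34, 6.29 and 6.15 on mock arrays 4, 5 and 6 and 5.77, 6.19 and 5.20 on the WTAP arrays, so the groups overlapped. The log2 fold change of ITGB8 was -0.54 with a 95% interval of -1.06 to -0.02 (limma adjusted p = 0.132). Without WTAP array 5 it was -0.79 and passed (limma adjusted p = 0.0348, over 15 alternatives 0.0348 to 0.255). On the arrays then left ITGB8 was detected in mock cells alone and met the filter only through them, so this pass lends the fall no separate support. Without WTAP array 6 the value was -0.28, and with no background correction it was -0.24. The only ITGB6 probe was detected on 0 of 6 arrays, with detection p-values of 0.690 to 0.948 and bead signals of 98.5 to 126.1, so no change of ITGB6 could be measured at this signal.

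**Figure D2:**
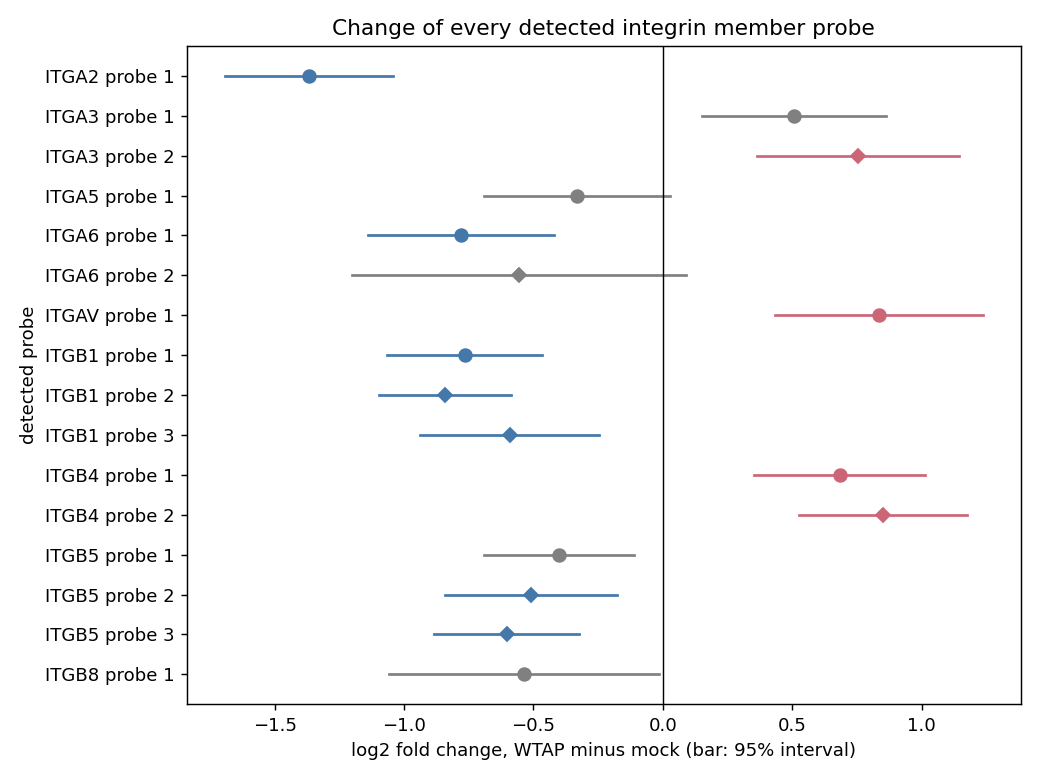
Log2 fold change, WTAP minus mock (x axis), of the 16 detected probes of the integrin genes (y axis, brightest probe of each gene as probe 1), with 95% intervals as bars; circles are the probe that stood for the gene, diamonds the other probes, blue and red passed the threshold in the fit over all detected probes, grey did not. In the 5 genes with several detected probes all probes of a gene lie on the same side of 0.

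Over all detected probes of the 10 genes, 11 of 16 passed in the probe fit, 4 higher and 7 lower, in 7 genes, against 19.1% of all detected probes. In 5 genes more than 1 probe was detected, and in each of these the probes had the same sign. The 3 ITGB1 probes ran from -0.84 to -0.59, the 3 ITGB5 probes from -0.60 to -0.40, the 2 ITGB4 probes from 0.68 to 0.85, the 2 ITGA3 probes from 0.51 to 0.75 and the 2 ITGA6 probes from -0.78 to -0.56. Probes of a gene share its transcripts and are not replicates of the condition.

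By receptor, both subunits fell in the ITGB1 receptors with ITGA2 or ITGA6, while called subunits went opposite ways in ITGA6 with ITGB4 and in ITGAV with ITGB1. In the collagen receptor the change of ITGA2 lay 0.60 log2 units below that of ITGB1 (the SDs of the within-array difference were 0.20 on mock and 0.26 on WTAP arrays), and the groups did not overlap. ITGA6 and ITGB1, a laminin receptor, changed by nearly the same amount, with a difference in change of -0.01 log2 units and overlapping groups. ITGA6 and ITGB4, the hemidesmosome receptor, went opposite ways, and the change of ITGA6 was 1.46 log2 units below that of ITGB4 (SDs 0.13 and 0.39). All differences between partners, here and below, use values before the subtraction of neighbouring genes. After it ITGB1 stood at -0.16 and ITGB4 at 0.41, neither of them called, while ITGA6 stood at -0.79 and ITGAV at 0.89. The differences between partners were not computed on those values.

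ITGAV rose while none of its measured partners did. Its change lay 1.60 log2 units above that of ITGB1 (SDs 0.11 and 0.17), 1.23 above that of ITGB5 (SDs 0.11 and 0.20) and 1.37 above that of ITGB8 (SDs 0.15 and 0.27), in each case with groups that did not overlap. ITGB8 was undetected on 2 WTAP arrays, so its difference rests on values at background. For ITGA3 with ITGB1 the difference in change was 1.27 log2 units (SDs 0.05 and 0.21, no overlap), and for ITGA5 with ITGB1 it was 0.43 (SDs 0.34 and 0.24, with overlap). Groups did not overlap in 6 of the 8 pairs compared, and they did not in 40.8% of all pairs of tested genes. Where both subunits were apart between groups but in opposite directions, their difference had to be apart as well. This held for ITGA3 or ITGAV with ITGB1, ITGA6 with ITGB4 and ITGAV with ITGB5. These pairs therefore add no separate support to the values of their single genes. Each of the 6 had a two-sided exact permutation p of 0.10 (0.133 after adjustment over the 8 pairs), which is the smallest that this test can give with 3 against 3 arrays, whatever the size of the difference. The pairs share subunits and are not independent. The ITGAV and ITGB6 pair was not compared.

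**Figure D3:**
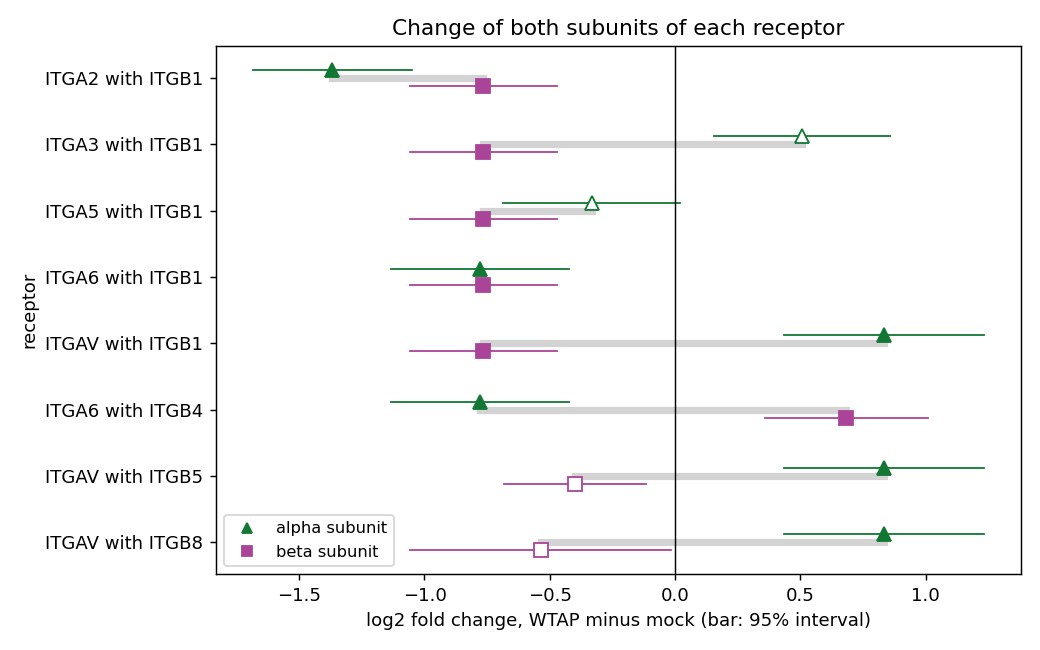
Log2 fold change, WTAP minus mock (x axis), of the alpha subunit (triangle) and the beta subunit (square) of 8 integrin receptors (y axis), with 95% intervals as thin bars; filled symbols passed the threshold in limma, open ones did not, and the grey bar spans the 2 values. The symbols nearly coincide for ITGA6 with ITGB1, while they lie on opposite sides of 0 for ITGA3 with ITGB1, ITGA6 with ITGB4 and the 3 receptors of ITGAV.

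The called members differed in what the genes around them did. Subtraction of the 50 nearest tested genes left ITGA2 at -1.37 (limma adjusted p = 0.000629), ITGA6 at -0.79 (adjusted p = 0.00799) and ITGAV at 0.89 (adjusted p = 0.0181), all past the threshold. ITGB1 and ITGB4 were the 2 called members whose neighbours had a median beyond 0.2 in size, and both lost the call. The median of the 50 neighbours lay between -0.07 and 0.17 for the other 7 tested members.

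**Figure D4:**
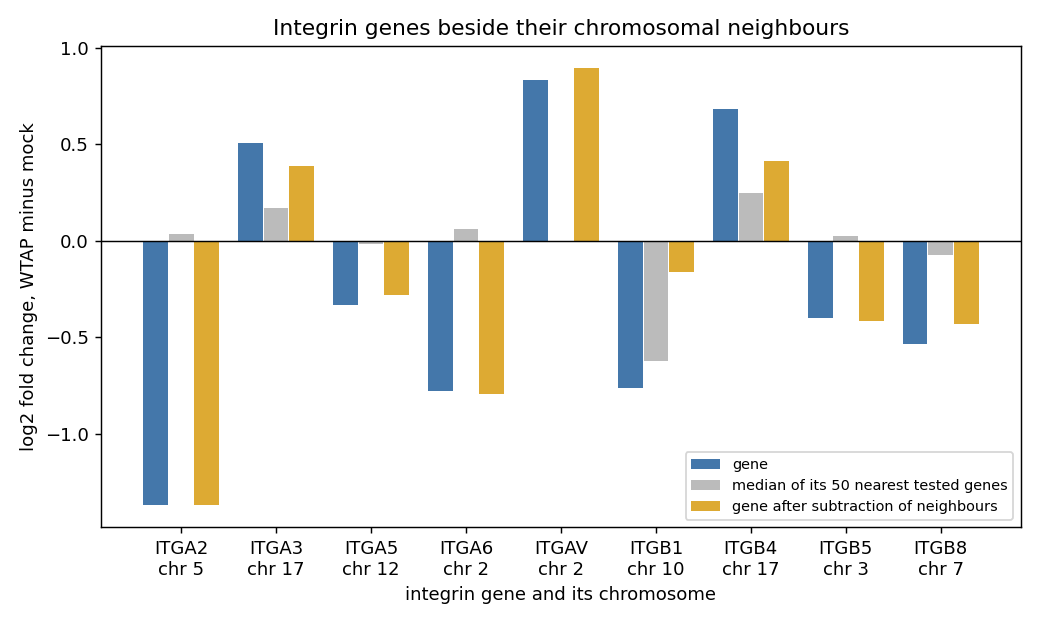
Log2 fold change, WTAP minus mock (y axis), of the 9 tested integrin genes (x axis, with chromosome): the gene itself (blue), the median of its 50 nearest tested genes (grey), and the gene after subtraction of those neighbours in each array (yellow). ITGB1 stands at -0.77 beside neighbours at -0.63 and goes to -0.16, while ITGA2 stays at -1.37.

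Across the 6 arrays the called members varied with many other genes. The 2 tested genes most like ITGA2 in Pearson correlation over the 6 arrays were OR7E91P and AHR (0.997 and 0.996), and 376 genes exceeded 0.95. The genes most like ITGAV were RARRES2 and SRGAP2 (0.999 and 0.997), those most like ITGA6 were DUSP6 and PDLIM5 (0.997 and 0.996), those most like ITGB1 were GPC4 and SLC10A7 (0.998 each), and those most like ITGB4 were CBX2 and TJP3 (both 0.995). CBX2 lies on chromosome 17, as ITGB4 does. These correlations describe 6 arrays in 2 groups, which any gene with a large group difference shares, and carry no test.

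Of 16 further integrin genes, 7 were tested and 0 passed in limma (1 at an unadjusted p under 0.05), with a median log2 fold change of -0.10. That 1 was ITGB2, the beta subunit of leukocyte integrins, with a mean bead signal of 3265 on mock arrays and 4466 on WTAP arrays and a change of 0.58 on the log2 scale (limma adjusted p = 0.0575). ITGB2 passed under 7 of 16 alternatives, the replicate block among them (adjusted p = 0.0168). Its usual alpha partners ITGAL, ITGAX and ITGAD were detected on no array and ITGAM on 1. ITGB3, a further partner of ITGAV, was detected on no array. ITGA1, a collagen receptor subunit, was detected on 1 mock array and was too dim to be tested; with no filter on dim probes it passed, as lower.

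Among the ligands, collagen genes changed on both sides. Of 9 tested collagen chains 2 rose and 2 fell, with a median log2 fold change of -0.13. COL4A1 lacked detection on every mock array but was measured at least 3.34-fold higher in WTAP-labelled cells (limma adjusted p = 7.44e-05), but it lies on chromosome 13, where its 50 nearest genes had a median of 0.59. COL4A2, on the same chromosome, had a log2 fold change of 0.03 and did not pass (limma adjusted p = 0.953). It was dim, with log2 means of 6.09 on mock and 6.12 on WTAP arrays and detection on 2 arrays of each group. The 95% interval of its change, -0.59 to 0.65, included the median of 0.59 around COL4A1. The value therefore cannot show that COL4A2 was unchanged. COL4A6 was detected on no WTAP array and was at least 1.58-fold lower (adjusted p = 0.0125), COL4A5 fell by 1.25 on the log2 scale, which is the scale of all changes below that are not given as folds (adjusted p = 0.000733), and COL1A1 rose by 0.74 (adjusted p = 0.00990, limma). Here and below, a fold given as at least so much sets the mean of the group that detected the gene against the mean over the other arrays of the higher of the gene's own value and the lowest detected signal. Such genes, and also TGFB3 and TLN2 named below, passed the detection filter only through the group in which they were higher. Their adjusted p-values therefore lend the difference no separate support.

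Of 7 tested laminin chains, ligands of ITGA3 and ITGA6, LAMC1 rose by 0.81 (limma adjusted p = 0.00741) and LAMA4 fell by 0.64 (adjusted p = 0.0231). The laminin chain LAMB3, part of the laminin that hemidesmosomes bind, had a log2 fold change of -0.60 (SE 0.23, limma adjusted p = 0.102). Of 10 tested RGD and other matrix ligands, 1 rose and 1 fell. NPNT, which encodes the matrix protein nephronectin, lacked detection on every mock array and stood at least 2.25-fold higher on the others (limma adjusted p = 0.00160), against a median of -0.32 among its neighbours on chromosome 4. THBS1, thrombospondin, fell by 0.50 (adjusted p = 0.0137). FN1, which encodes the fibronectin that ITGA5 binds, was detected on all 3 mock arrays and 0 WTAP arrays, with log2 means of 6.16 and 5.86, and did not pass (limma adjusted p = 0.0867).

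Of 5 tested genes of latent TGF-beta and its binding proteins, 1 fell and 1 rose. TGFB3, detected on 1 of the 3 WTAP arrays, fell by 1.13 (limma adjusted p = 0.00922), and TGFB2 rose by 0.61 (adjusted p = 0.0348). TGFB1 was not among the tested genes. In the hemidesmosome list, ITGA6 and ITGB4 were the only 2 of 6 tested genes that passed. PLEC, the plectin that ties ITGB4 to keratin, stood at 0.20 (SE 0.17) and CD151, a tetraspanin that binds laminin receptors, at -0.29 (SE 0.11), neither past the threshold (limma adjusted p = 0.458 and 0.112).

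Inside the cell, 5 of 24 tested genes of talins, kindlins and adaptors rose and 4 fell (37.5% called, median log2 fold change -0.05). LPXN, the paxillin relative leupaxin, fell by 2.11 (limma adjusted p = 0.000407), and TLN2, a talin, rose by 1.28 with detection on 1 mock array (adjusted p = 0.00161). TNS3, a tensin, rose by 0.68 (adjusted p = 0.0306). FERMT3, a kindlin known from blood cells, was detected on no WTAP array and was at least 1.36-fold lower (adjusted p = 0.0104, limma). Of 17 tested kinases and signalling genes of focal adhesions 2 rose and 0 fell. These were ARHGEF7 (0.80, limma adjusted p = 0.00302) and SRC, the tyrosine kinase (0.43, adjusted p = 0.0466). ARHGEF7 lies on chromosome 13, as COL4A1 does, and its neighbours had the same median of 0.59.

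Of 9 tested genes of integrin inhibition and trafficking, RAB11FIP1, an adaptor of recycling vesicles, rose by 0.96 (limma adjusted p = 0.00876) and 0 fell. Of 10 tested tetraspanin and membrane partners 2 rose and 1 fell. CD47, which associates with integrins of ITGAV, rose by 1.01 (limma adjusted p = 0.00710), TSPAN3 rose by 0.43 (adjusted p = 0.0206), and CD63 fell by 0.52 (adjusted p = 0.0112). Called shares of these lists ran from 11.1% to 44.4%, on both sides of the 20.4% of all tested genes. Among the called genes named from these lists, the 50 nearest tested genes also had a raised median for TSPAN3 (0.28), TGFB2 (0.26), LAMC1 (0.25) and TLN2 (0.20), each in the direction of the gene itself. The neighbours' median was -0.20 for FERMT3, which also fell. RSU1, a further called adaptor gene, lies on chromosome 10 and fell by 0.61 beside neighbours with a median of -0.75.

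**Figure D5:**
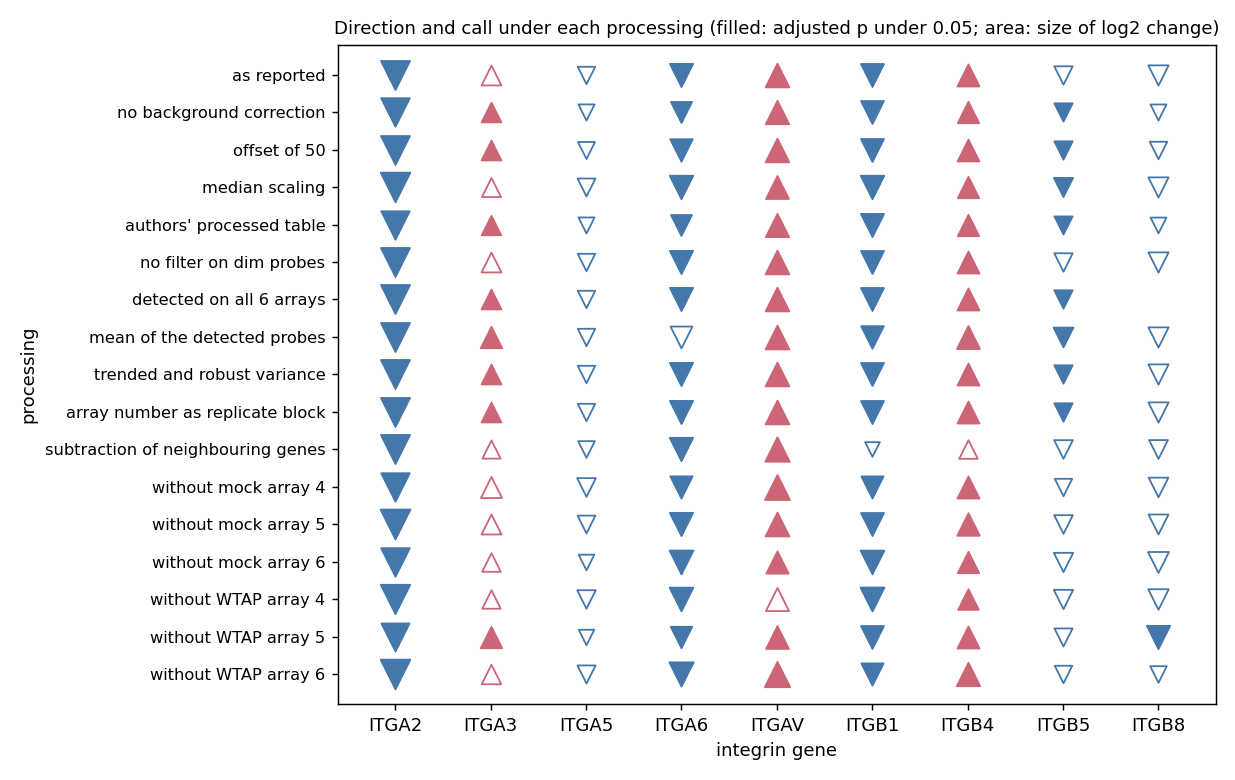
Direction (triangle up for higher, down for lower in WTAP-labelled cells), size (area) and call (filled for limma adjusted p under 0.05) of the 9 tested integrin genes (x axis) under the reported processing and 16 alternatives (y axis). No gene changes direction in any row, ITGA2 is filled in all, and ITGB1 and ITGB4 are open after the subtraction of neighbouring genes.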

How the data were processed

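Per the labels, RNA of 3 mock and 3 WTAP samples was hybridised to single-colour Illumina arrays; the submitters' processing notes name BeadStudio 3.3. The authors deposited bead intensity on the linear scale, before any normalization, beside a detection p-value per probe and array, and a second table of processed intensity, quantile normalized as its values show. How its background was treated was not stated in the labels.

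The 29377 probes were background corrected by neqc (limma 3.58.1, R 4.3.3) (normexp with controls inferred from the detection p-values, offset 16, quantile normalization, log2). Of 29285 probes in both tables, 15830 were detected (p under 0.05) on at least 3 arrays; the brightest probe of each of 11586 genes was tested with lmFit and eBayes, Benjamini-Hochberg adjusted at 0.05, and a separate fit covered all detected probes. The offset understates changes of dim genes. Symbols and chromosome order came from RefSeq (GRCh38.p14), with no coordinates used for the arrays, which have no build. The fit was tested on simulated data. Text genes are the 10 members, up to 4 called genes of each list, and the 2 genes most correlated with each called member. FN1, LAMB3, PLEC, CD151, COL4A2, RSU1 and the other integrin subunits were named after their values were seen. Members, lists and the neighbour subtraction were chosen with earlier results of these data known.

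Arrays of the same number deviated together across genes (correlations of deviations from the group means 0.12, 0.21 and 0.23, against -0.20 to 0.02 for other combinations), so the numbers in the titles were taken as pairs in an alternative; the labels do not say what they mark. Deviations from a group mean cancel out over the arrays of the group. Higher correlations in some combinations therefore force lower ones in others, and part of this contrast is built in. Alternatives changed the background correction, offset, scaling, table, filter, probe rule, variance model, pairing, chromosomal neighbourhood and each array in turn.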

Additional observations from a re-analysis of the deposited data

How the results depend on the processing

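Of 143 values of the 9 tested integrin genes under 16 alternatives, 0 changed direction, 122 kept their side of the threshold, 4 lost the call and 17 gained it. The count of higher members (2) was 1 after subtraction of neighbouring genes, with ITGAV alone, and ranged from 1 (without WTAP array 4) to 3 (without WTAP array 5) when 1 array was left out; that of lower members (3) was 2 after the subtraction and ranged from 3 to 4. The 17 gains were in ITGA3 (8), ITGB5 (8) and ITGB8 (1). The ITGB8 gain came without WTAP array 5, the only WTAP array that detected the gene, and lends its fall no separate support. With the array numbers as a replicate block, 3 members were higher and 4 lower, ITGA3 and ITGB5 having passed in addition, and no other member's call changed. Over all genes, 2366 were called, and without 1 array 1349 to 2246 (650 to 1116 higher, 657 to 1130 lower), with 1349 and 1568 when WTAP array 4 or 5 was omitted and 1430 and 1561 when mock array 5 or 6 was. After subtraction 1603 of 11547 genes passed. Median scaling turned the split of 1218 higher and 1148 lower to 1009 and 1323, and moved the median of all genes to -0.03. ITGB6, ITGB8 on WTAP arrays and ITGA1 lay near background, so the sizes given for ITGB8 rest on values partly below the detection limit. The cause of these shifts was not tested.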
